A study of Oryza sativa with 4 samples.

Results

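Basic helix-loop-helix (bHLH) and basic leucine zipper (bZIP) proteins are 2 families of transcription factors that bind DNA as dimers. Their genes were taken from the deposited table of rice transcripts by the words helix-loop-helix, bHLH, bZIP or basic leucine zipper in a transcript's description. This gave 47 of the 10455 loci in the table, 29 bHLH and 18 bZIP, with no locus in both families. The members were chosen by description and not by any measured value, though with earlier results of these data known.

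The heated group was made of shoots of wild-type rice plants 2 weeks old, kept in water at 42 °C for 10 min, and the control group of the same kind of shoots kept in water at 22 °C for 10 min. All plants were turned upside down to dip the shoots, so that immersion was shared by both groups. Each temperature had 2 libraries of ribosome-protected RNA fragments, each from a pool of shoots, made to compare translational efficiency between the temperatures. The deposited table holds 1 score for each transcript and temperature, taken here for translational efficiency, that is footprints per RNA, since the libraries were made to measure it. The headers give neither formula nor scale. Replicates are not given apart and the depth is unknown, so no difference below has a test or an error. If the score is footprints per RNA, a higher score can come from more footprints or from less RNA. In whole shoots a change in the cells that hold the RNA and a change per cell cannot be told apart.

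In both families a stretch of basic residues grips the DNA and the neighbouring part of the protein holds the dimer together, a helix-loop-helix in bHLH proteins and a leucine zipper in bZIP proteins. Plant bHLH factors mostly bind E-box sites (CANNTG) and act in light, jasmonate, cold, iron and brassinosteroid responses, and plant bZIP factors mostly bind sites with an ACGT core and act in abscisic acid (ABA), light and defence responses. In Arabidopsis, mRNAs of some members of both families carry short open reading frames ahead of the main one that hold down its translation.

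The most extreme bHLH ratios lay further from equality in both directions than the bZIP ratios. Upward this rested on 3 loci, and the upper quartile of the log2 ratio of 42 over 22 °C was 0.56 in bHLH and 0.60 in bZIP loci. The centres of both families lay near a ratio of 1. Above 0 at both temperatures were 27 of the 29 bHLH loci and 16 of the 18 bZIP loci. At 42 °C 3 of these 27 bHLH loci were higher by 2-fold or more and 5 lower by 2-fold or more, that is 11.1% and 18.5%, against 16.1% and 21.6% of the 9280 loci of the whole table above 0 at both. Of the 16 bZIP loci, 0 were higher by 2-fold or more and 0 lower by 2-fold or more, against 37.7% of all loci beyond 2-fold in either direction. The bHLH share of 29.6% in either direction was thus below that of the table too.

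The median log2 ratio of 42 over 22 °C was -0.11 in bHLH loci and 0.05 in bZIP loci, against 0.03 over all loci, a difference between the families of -0.16. The quartiles of the ratios were -0.61 and 0.56 in bHLH loci, -0.09 and 0.60 in bZIP loci and -0.83 and 0.67 over all loci. The distance between the quartiles was 1.17 in bHLH loci and 0.69 in bZIP loci on the log2 scale. That gap of 0.49 fell to 0.16 when only the lowest-numbered transcript of a locus, or only transcripts with the family words, were used. By direction alone, 12 of 27 bHLH loci and 8 of 16 bZIP loci were higher at 42 °C, beside 51.1% of all loci. Scores within 1.2-fold of each other were found at 6 of 27 bHLH loci (22.2%) and 7 of 16 bZIP loci (43.75%), beside 19.8% of all loci.

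**Figure D1:**
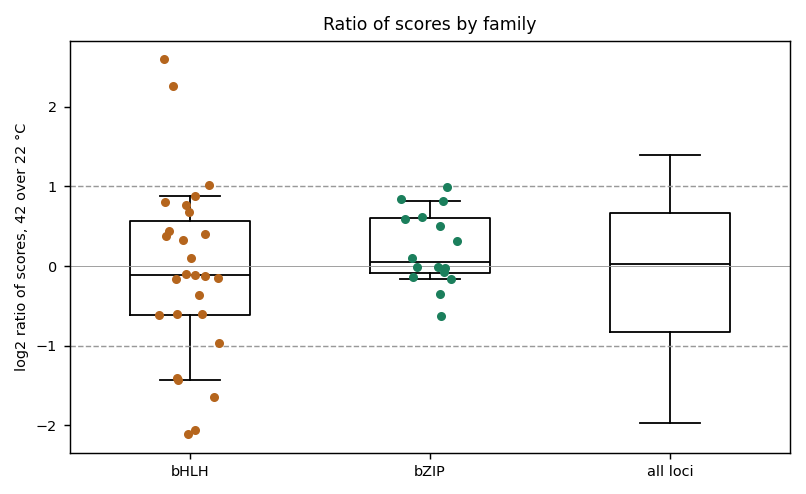
Log2 ratio of the score at 42 °C over the score at 22 °C for bHLH loci, bZIP loci and all loci above 0 at both temperatures; points are loci, boxes the quartiles with the median, whiskers the 10th to 90th percentiles, and dashed lines mark 2-fold. The bZIP points all lie between the dashed lines, from -0.63 to 0.99, whereas bHLH points run from -2.11 to 2.60.

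Ratios spread more among loci with low scores, so the families were also set beside loci of their own level. Between the 10th and 90th percentiles of the mean scores of bZIP members, 0.0339 to 0.581, 12 bZIP loci had 0 beyond 2-fold, and all 6334 loci of that range had 14.8% higher by 2-fold or more and 17.7% lower by 2-fold or more. In the corresponding bHLH range, 0.0272 to 0.477, 3 of 21 bHLH loci (14.3%) were higher by 2-fold or more and 4 (19.05%) lower by 2-fold or more, close to the 15.2% and 19.1% of all 6412 loci there. The narrow spread of the bZIP loci was therefore also found beside loci of like level, and the bHLH shares lay near theirs.

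**Figure D2:**
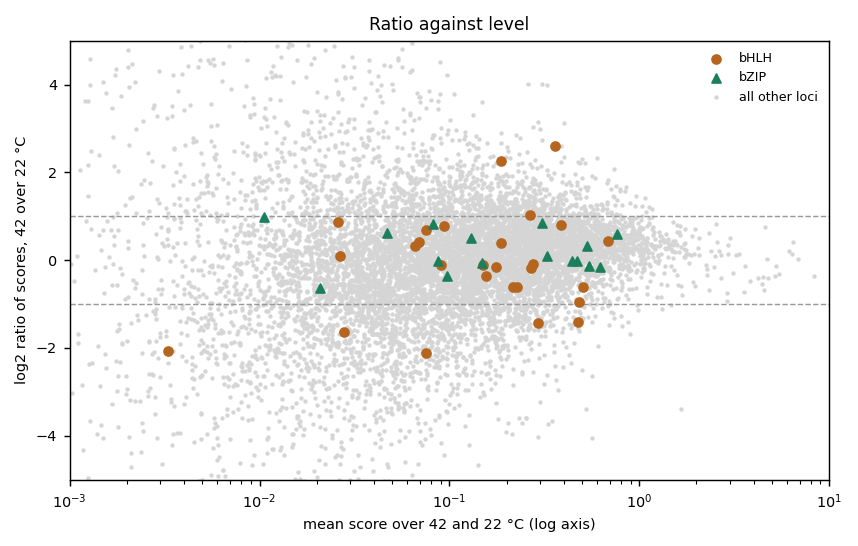
Log2 ratio of scores, 42 over 22 °C, against the mean score over both temperatures on a log axis, for bHLH loci (circles), bZIP loci (triangles) and all other loci (grey); dashed lines mark 2-fold, and 298 other loci lie outside the axes. The 8 bHLH loci beyond 2-fold lie at mean scores from 0.00330 to 0.474, among grey points that scatter more widely toward low scores.

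Only 3 bHLH loci passed 2-fold upward, and both of the larger ratios were on chromosome 3 loci described by the domain alone. The lowest bHLH ratios, at OS03T0797600 and OS03T0391700, were on chromosome 3 too. OS03T0741100, a protein with a bHLH dimerisation domain, had a score of 0.615 at 42 °C and 0.102 at 22 °C, a 6.04-fold ratio above those of 96.6% of all loci. OS03T0782500, described by a helix-loop-helix DNA-binding domain, had 0.308 at 42 °C and 0.0640 at 22 °C, a 4.81-fold ratio. OS01T0924400, described as similar to an auxin-induced bHLH factor, had 0.355 at 42 °C and 0.175 at 22 °C, a ratio of 2.03 that lies just past the threshold. The first of these loci had the second highest bHLH score at 42 °C.

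The 5 bHLH loci lower by 2-fold or more at 42 °C include the bHLH locus with the highest score at 22 °C. That locus, OS04T0301500, described by a helix-loop-helix DNA-binding domain, had 0.260 at 42 °C and 0.688 at 22 °C, 2.65-fold lower. OS05T0337200, with the same kind of description, had 0.159 at 42 °C and 0.429 at 22 °C, 2.70-fold lower. The other 3 had lower scores at both temperatures. OS03T0797600, described as similar to a bHLH transcription factor, had 0.0283 at 42 °C and 0.122 at 22 °C, 4.32-fold lower. OS03T0391700, described by the domain alone, had 0.00127 at 42 °C and 0.00532 at 22 °C, so its 4.17-fold ratio rests on scores near the bottom of the table.

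Few bHLH loci carry a name that gives a role, and these went different ways. The locus similar to phytochrome-interacting factor 3, which in Arabidopsis binds the light receptor phytochrome and promotes growth in darkness, was OS07T0182200. It was the fifth of the loci past 2-fold, with 0.0135 at 42 °C and 0.0421 at 22 °C, 3.12-fold lower. The locus similar to ICE1, OS01T0928000, stands for a factor that in Arabidopsis turns on CBF genes in the cold and takes part in stomatal development. It had 0.326 at 42 °C and 0.635 at 22 °C, 1.95-fold lower and just short of 2-fold. OS08T0490000, of which a transcript is described as similar to BIM2, an Arabidopsis partner in brassinosteroid signalling, had 0.118 at 42 °C and 0.0689 at 22 °C, 1.71-fold higher.

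Among the 6 bHLH loci with the highest mean scores, 3 were higher and 3 lower at 42 °C. OS07T0143200, described by the domain, had the highest mean, with 0.786 at 42 °C and 0.581 at 22 °C. OS09T0487900 had 0.494 at 42 °C and 0.282 at 22 °C, and OS04T0660100 had 0.404 at 42 °C and 0.613 at 22 °C, both described by the domain. The other members of this group, OS03T0741100, OS04T0301500 and the ICE1-like OS01T0928000, are given above. Over the 12 bHLH loci with a mean score of at least 0.2, 4 were higher and 8 lower at 42 °C, with a median log2 ratio of -0.39. Over all 2898 loci of that level the median was 0.27, with 1903 higher and 995 lower.

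Of the 27 bHLH loci, 19 lay within 2-fold. Among them, 9 were higher and 10 lower at 42 °C, and their ratios ran from 1.84-fold higher, at OS03T0379300, to the 1.95-fold lower of the ICE1-like locus. The closest scores were those of OS01T0900800, with 0.268 at 42 °C and 0.286 at 22 °C. At 2 loci described by the domain the score was 0 at 22 °C alone. OS02T0433600 had 0.00955 and OS01T0626900 had 0.00117 at 42 °C, and no fold is given for either.

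**Figure D3:**
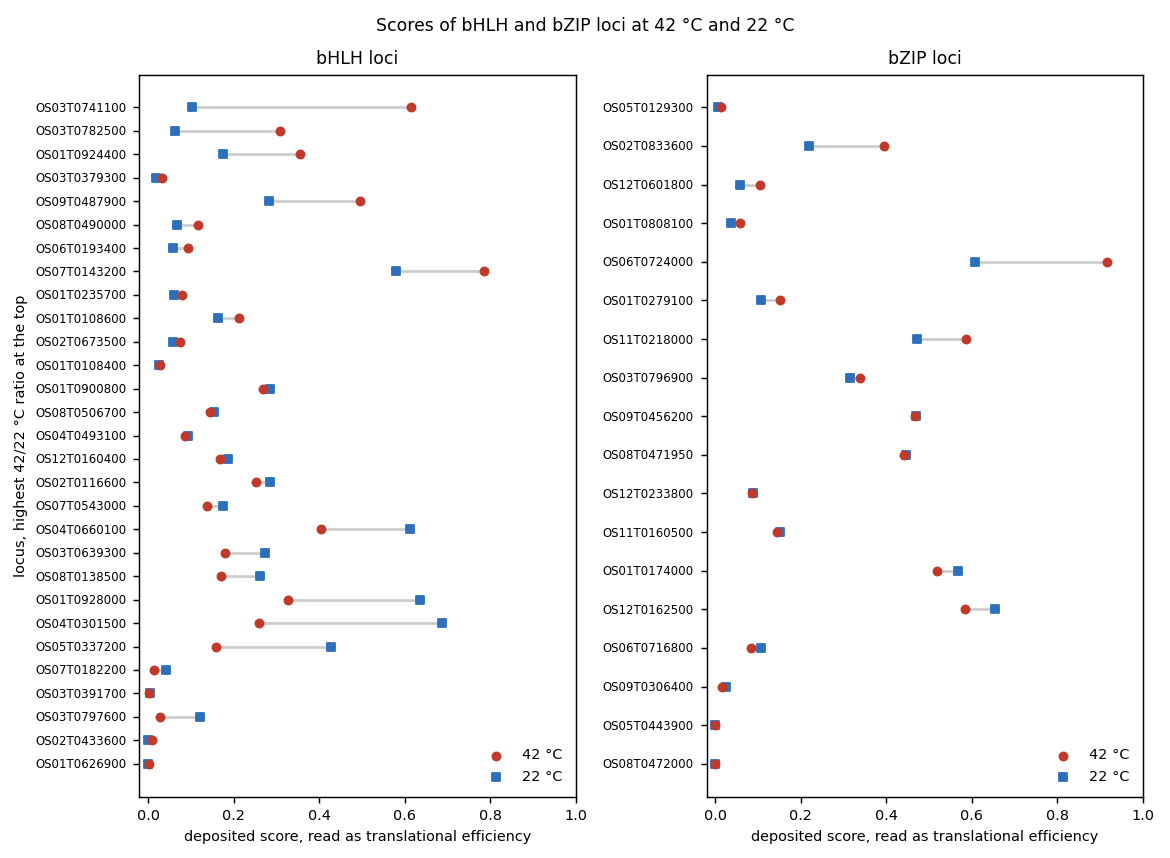
Deposited scores at 42 °C (circles) and 22 °C (squares) for each of the 29 bHLH loci and 18 bZIP loci, ordered by ratio with loci that have no ratio at the bottom; lines join the scores of a locus. The longest lines are those of bHLH loci, OS03T0741100 to the right and OS04T0301500 to the left, while 7 bZIP loci have scores within 1.2-fold of each other.

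Factors of the ABA response showed the closest scores of all named bZIP loci. OS09T0456200, described as similar to ABI5, an Arabidopsis bZIP factor that acts on ABA response genes in seeds and seedlings, had 0.468 at 42 °C and 0.470 at 22 °C. OS08T0471950, described as TRAB1, a rice factor that binds ABA response elements, had 0.441 at 42 °C and 0.446 at 22 °C. The locus OS08T0472000, described as similar to TRAB1, is listed at 0 at both temperatures, and the table does not show whether reads of near-identical copies were divided between these loci. Both of the ABA-related loci above 0 thus lay within 1.2-fold, at mean scores above those of 90.2% and 89.4% of the table's loci above 0.

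The bZIP loci with the highest mean scores also had close values, apart from the first. OS06T0724000, described by a bZIP domain, had an average of 0.915 at 42 °C and 0.607 at 22 °C, a ratio of 1.51. Of its transcripts, the one described by the bZIP domain had 0.634 at 42 °C and 0.327 at 22 °C, 1.94-fold higher, and the one described as a hypothetical conserved gene had 1.196 at 42 °C and 0.887 at 22 °C. OS12T0162500, described as bZIP-like, had 0.584 at 42 °C and 0.653 at 22 °C. OS01T0174000, similar to a bZIP factor, had 0.519 at 42 °C and 0.569 at 22 °C, and OS11T0218000, described by the domain, had 0.587 at 42 °C and 0.472 at 22 °C. None of the last 3 differed by more than 1.25-fold.

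The rule for named loci did not reach the remaining bZIP loci, which were picked once their scores were known. The largest bZIP ratio belonged to OS05T0129300, described as a basic/leucine zipper protein, with 0.0140 at 42 °C and 0.00706 at 22 °C, a ratio of 1.98 from low scores. OS02T0833600, similar to a basic leucine zipper factor, had 0.395 at 42 °C and 0.220 at 22 °C, 1.80-fold higher. OS12T0601800, similar to a bZIP family protein, had 0.105 at 42 °C and 0.0592 at 22 °C, 1.77-fold higher. The lowest bZIP ratio was that of OS09T0306400, described by the domain, with 0.0163 at 42 °C and 0.0251 at 22 °C, 1.54-fold lower.

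Of the other bZIP descriptions, some name regulators known from other plants and the rest give only the family or its domain. OS11T0160500, related to RSG, a tobacco activator of a gibberellin synthesis gene, had 0.145 at 42 °C and 0.152 at 22 °C. OS12T0233800, described as a DNA-binding factor of the bZIP class, had 0.0861 at 42 °C and 0.0877 at 22 °C. OS03T0796900, a bZIP protein, had 0.339 at 42 °C and 0.315 at 22 °C. These 3 lay within 1.2-fold. OS05T0443900, similar to liguleless2, which in maize places the boundary of leaf blade and sheath, is listed at 0 at both temperatures. The last 2 members were OS01T0808100, similar to a bZIP factor, with 0.0571 at 42 °C and 0.0372 at 22 °C, and OS06T0716800, described by the domain, with 0.0850 at 42 °C and 0.108 at 22 °C.

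Transcripts of the same locus did not always go the same way. Of the 12 members with more than 1 transcript, 9 had all transcripts in the same direction and 3 had opposite directions. Both transcripts of OS03T0797600 were lower at 42 °C, 7.60-fold and 4.04-fold. At OS03T0379300 a transcript was 2.64-fold higher, with 0.0531 at 42 °C and 0.0201 at 22 °C, and the other lower, with 0.0136 at 42 °C and 0.0162 at 22 °C. At OS08T0490000 the transcript described as similar to BIM2 was 2.27-fold higher, with 0.161 at 42 °C and 0.0711 at 22 °C, and the other transcript 1.10-fold higher.

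The bZIP locus OS01T0279100 has transcripts of unlike description. The transcript described as similar to bZIP factor CAT103 had 0.212 at 42 °C and 0.103 at 22 °C, 2.06-fold higher. The other, described as similar to an enzyme of chlorophyll synthesis, magnesium-protoporphyrin monomethyl ester cyclase, had 0.0932 at 42 °C and 0.112 at 22 °C. Their average gave 0.152 at 42 °C and 0.108 at 22 °C, 1.42-fold higher. With only the 55 of 59 transcripts whose own description names the family, 1 of 16 bZIP loci, this one, was higher by 2-fold or more.

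**Figure D4:**
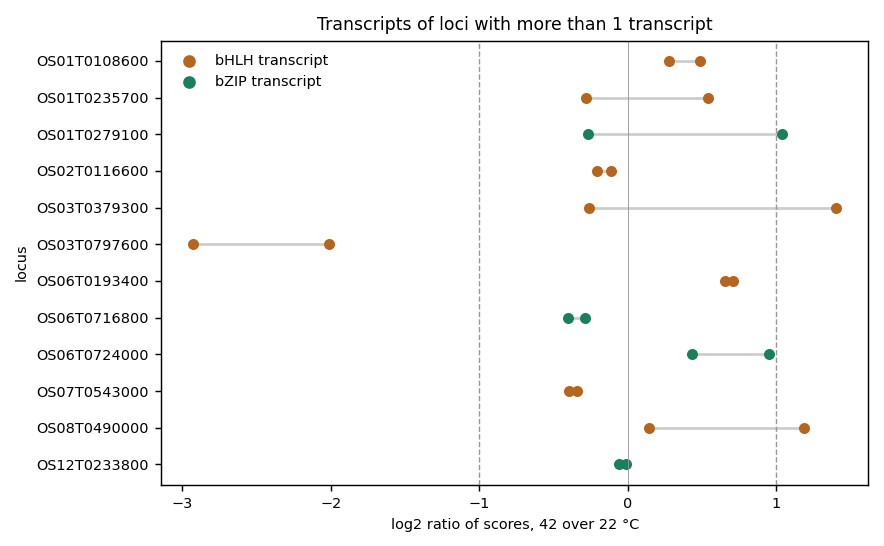
Log2 ratio of scores, 42 over 22 °C, for each transcript of the 12 loci with more than 1 transcript, coloured by the family of the locus; a line joins the transcripts of a locus and dashed lines mark 2-fold. OS03T0797600 has both transcripts below -2, and OS01T0235700, OS01T0279100 and OS03T0379300 have transcripts on both sides of 0.

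The words of the rule missed loci whose descriptions give a family protein by name, and among these bZIP loci beyond 2-fold were present. They were looked up after the scores were seen, so they describe only how far the bZIP result rests on the words. The bZIP names searched were HBP-1, G-box binding factor and transcription factor HY5, and the bHLH names MYC7E and MYC1. Other protein names were not searched, so these loci are not all that the rule missed. Of the 7 bZIP loci found by these names, 2 were higher by 2-fold or more and 1 lower by 2-fold or more. That is 42.9% in either direction, beside 37.7% of all loci. OS08T0176900, similar to HBP-1b, a wheat factor that binds a histone gene promoter, had 0.180 at 42 °C and 0.0463 at 22 °C, 3.88-fold higher. OS03T0239400, similar to HBP-1a, had 0.0249 at 42 °C and 0.00101 at 22 °C, a large ratio from low scores. OS05T0569300, similar to G-box binding factor 1, had 0.0265 at 42 °C and 0.0629 at 22 °C, 2.38-fold lower. The locus similar to HY5, which in Arabidopsis promotes light responses of seedlings, was OS02T0203000, with 0.365 at 42 °C and 0.373 at 22 °C.

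Of the bHLH proteins described as MYC7E or MYC1 without the family words, 2 of 3 were above 0 at both temperatures. Both were higher at 42 °C. OS10T0575000, similar to MYC7E, had 0.434 at 42 °C and 0.239 at 22 °C, 1.82-fold higher. OS09T0501600, similar to MYC1, had 0.116 at 42 °C and 0.0504 at 22 °C, 2.31-fold higher. OS05T0439100, also similar to MYC7E, had 0 at 42 °C and 0.000778 at 22 °C. With these relatives added, 4 of 29 bHLH loci and 2 of 23 bZIP loci were higher by 2-fold or more, beside 16.1% of all loci. Lower by 2-fold or more were 5 bHLH loci and 1 bZIP locus, beside 21.6% of all loci.

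Proteins that act with bHLH factors were listed by description. Tify (JAZ) proteins bind and restrain MYC-type bHLH factors until jasmonate removes them. Of 13 loci in their word list, which also holds a Zim17-type zinc finger protein, 12 were higher and 1 lower at 42 °C. Past 2-fold was 1 (7.69%) in each direction, and the median log2 ratio was 0.68. Among all loci 51.1% were higher, 16.1% by 2-fold or more, and 21.6% were lower by 2-fold or more. High scores were common in this list, since 12 of its 13 loci had mean scores above the 75th percentile (0.234). Of the 2898 loci in the table whose mean score reached 0.2, 1903 were higher, and their median was 0.27. Whether the list rose more than other loci of its level was not tested. MYB proteins form complexes with some bHLH factors, and their word list also holds loci described as GAMYB-binding proteins. Of its 47 loci above 0 at both temperatures, 4 (8.51%) were higher by 2-fold or more and 8 (17.0%) lower by 2-fold or more. These stand beside 16.1% and 21.6% of all loci, and the median of the list was 0.15. The word list for phytochromes, the receptors that bind phytochrome-interacting bHLH factors, has 6 loci but holds only 3 phytochromes. Phytochrome A (OS03T0719800) had 0.0978 at 42 °C and 0.0495 at 22 °C. Phytochrome B (OS03T0309200) had 0.00483 at 42 °C and 0.0152 at 22 °C, and phytochrome C (OS03T0752100) had 0.000608 at 42 °C and 0.0623 at 22 °C.

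Proteins that act on bZIP factors of the ABA pathway were counted in the same way. SnRK2 kinases (SAPK in rice) phosphorylate ABA-response bZIP factors. Of 9 SAPK loci above 0 at both temperatures, 3 (33.3%) were higher by 2-fold or more and 3 lower by 2-fold or more, beside 16.1% and 21.6% of all loci, with a median log2 ratio of -0.11. SAPK6 (OS02T0551100) had 0.121 at 42 °C and 0.0253 at 22 °C, whereas SAPK10 (OS03T0610900) had 0.171 at 42 °C and 0.347 at 22 °C. PP2C phosphatases, some of which switch these kinases off, had 3 of 26 loci (11.5%) higher by 2-fold or more and 4 (15.4%) lower by 2-fold or more, both below those shares of all loci, with a median of -0.14. All partner loci named here were picked once their scores were known.

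The other lists of bZIP partners had few loci, and another family with a zipper was listed beside them. The 14-3-3 proteins hold some phosphorylated bZIP factors, RSG among them, in the cytoplasm. Of 4 such loci, 3 were higher and 1 lower at 42 °C, all within 2-fold, with a median log2 ratio of 0.66. Over all loci 51.1% were higher, 62.3% lay within 2-fold and the median was 0.03. NPR1-like proteins are co-regulators of TGA-type bZIP factors, and their word list had 1 locus higher and 3 lower with a median of -0.37. The higher locus, OS11T0102200, was taken by the word NPH1, is described as similar to NPH1-1, and is not shown to be an NPR1-like protein. It had 0.0352 at 42 °C and 0.000757 at 22 °C. It was the only one of these 4 beyond 2-fold, beside 37.7% of all loci. The homeodomain leucine zipper proteins share the zipper but bind DNA through a homeodomain. Of their 13 loci, 3 (23.1%) were higher by 2-fold or more and 1 (7.69%) lower by 2-fold or more, beside 16.1% and 21.6% of all loci, with a median of 0.40.

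**Figure D5:**
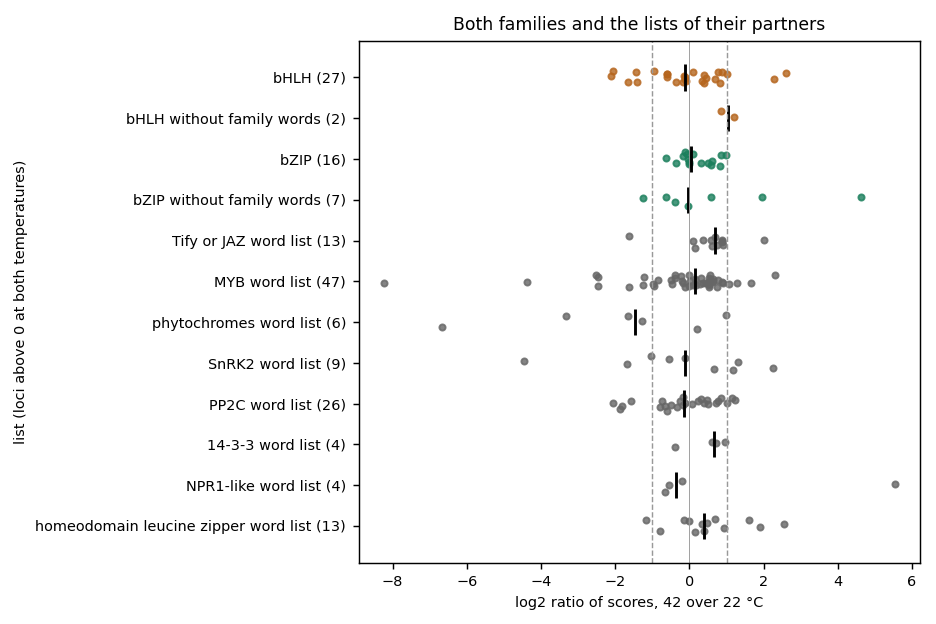
Log2 ratio of scores, 42 over 22 °C, for loci of both families, for relatives described without the family words, for word lists of partners and for homeodomain leucine zipper loci, which are not partners. Each point is a locus above 0 at both temperatures (number in parentheses), black bars are medians and dashed lines mark 2-fold. The bZIP points lie within the dashed lines. Outside them lie 3 of the 7 bZIP loci without family words that the searched names found, and 6 of the 9 SnRK2 loci.

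The families were set beside the MYB and SANT, WRKY and NAC families of the table, and other transcription factor families were not compared. The MYB and SANT word list also holds loci described as GAMYB-binding proteins. MYB and SANT loci had 14 of 53 beyond 2-fold (26.4%), WRKY loci 10 of 20 (50.0%) and NAC loci 8 of 14 (57.1%). These stand beside 8 of 27 bHLH loci (29.6%), 0 of 16 bZIP loci and 37.7% of all loci. The median log2 ratios were 0.09 for MYB and SANT, 0.79 for WRKY and -0.30 for NAC loci. Differences between families were not tested, since genes are not replicates.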

How the data were processed

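Ribosome-protected fragments of rice shoots were sequenced from 2 libraries at 42 °C and 2 at 22 °C. The submitters' processing notes name cutadapt and Bowtie2; versions, genome build and annotation were not given in the sources used here. In their table, the authors deposited 1 score per transcript and temperature for 14122 transcripts, with the difference of both scores, which matched within 1e-05 in all 14122. The combining of libraries and the scaling of the score are likewise not stated, and the score, whose unit is not stated, was not used to check the tissue. Depth per library is unknown.

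Scores were averaged over all transcripts of a locus, which gave 10455 loci. One further locus that matches the family words is not reported here. Ratios of 42 over 22 °C were taken on the log2 scale for the 9280 loci above 0 at both temperatures, and a locus counted as higher or lower from 2-fold. No test was run. Planned fits across replicates could not be made, since the table has no value per replicate.

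Named loci are up to 8 per family and direction past 2-fold, the 6 with the highest mean score per family, those at 0 at 1 temperature and above the 75th percentile (0.234) at the other, of which there were none, and up to 4 per role named in a description. Others are marked as named after their scores were seen; for bHLH loci this holds for OS01T0900800, OS02T0433600, OS01T0626900, OS03T0379300 and OS01T0235700. Members and lists were chosen with earlier results of these data known. Locus numbers give the chromosome, and 0 of the 47 loci matched the reference gene table by locus. The ratio and count steps were tested on simulated data. Software was matplotlib 3.10.9, pandas 2.3.3, numpy 2.4.6 and Python 3.11.15.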

Additional observations from a re-analysis of the deposited data

How the results depend on the processing

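The bHLH median stayed below the bZIP median under every alternative tried for it. The difference was smallest, -0.06, with 0.1 added to both scores. That setting brings in the loci at 0, to 29 bHLH and 18 bZIP, and its bZIP median was 0. The difference was largest, -0.54, with only loci of fuller description, none of whose transcripts is described as domain containing (8 bHLH and 12 bZIP). That setting also leaves out OS08T0490000, which has a transcript described as similar to BIM2. It keeps general descriptions such as bZIP protein. At a mean score of at least 0.2 the difference was -0.43. The bHLH median was negative under each of these alternatives. It was -0.49 with fuller descriptions and -0.39 at a mean of at least 0.2. Centred on all loci of that level, a shift of 0.27, it was -0.37. The bZIP median had no stable sign. It was -0.22 under that centring, -0.0115 with each transcript on its own, and -0.00802 at a mean of at least 0.05, without OS01T0279100 and with relatives lacking the family words. The interquartile range stayed wider in bHLH than in bZIP loci, by 0.16 with the lowest-numbered transcript or only transcripts with the family words, 0.80 at a mean of at least 0.2 and 0.90 with fuller descriptions, against 0.49 as reported.

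Counts depended on the settings. At 1.5-fold there were 7 bHLH loci higher and 9 lower, and 5 bZIP loci higher and 1 lower. Within 1.5-fold lay 40.7% of bHLH loci and 62.5% of bZIP loci, beside 41.4% of all loci, so the bHLH share was near that of the table. At 3-fold, 3 bHLH loci were lower. Centring on all loci left 2 bHLH loci higher. Lower bHLH loci numbered 3 of 23 at a mean of at least 0.05 and 2 of 12 at 0.2, beside 897 of 6239 and 218 of 2898 of all loci. They also numbered 2 with 0.1 added, and 2 with fuller descriptions, where 1 was higher. For most other settings no share of all loci was computed. With the transcript of highest mean 5 bHLH loci and 1 bZIP locus were higher. With the lowest-numbered transcript, or only transcripts with the family words, 1 bZIP locus was higher. With relatives added, 2 bZIP loci were higher and 1 lower. Adding 0.1 took OS01T0924400, OS03T0391700, OS03T0797600 and OS07T0182200 inside 2-fold, and reading scores as log2(1 + ratio) took OS01T0928000 past it, at -1.12. The causes were not tested. The settings that add relatives, leave out OS01T0279100 or use only transcripts with the family words, and counts by lowest-numbered or highest transcript, were chosen after seeing the data. No paired analysis was possible because the table has no value per replicate, and no library could be left out.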
